A study of Homo sapiens with 2 samples.

Results

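The genes described here are 9 members of the PARP family, namely PARP1, PARP2, PARP4, PARP8, PARP9, PARP10, PARP12, PARP14 and PARP16, together with DTX3L, the ubiquitin ligase that partners PARP9. They were chosen by name, and each of the 10 matched 1 row among the 63677 Ensembl genes of the deposited count table. RNA was sequenced from 2 cultures of HGC-27, a human gastric carcinoma cell line. The lncPSCA culture was transfected with the expression plasmid pcDNA3.1 carrying the long non-coding RNA lncPSCA, and the control culture with the empty pcDNA3.1 vector. Both therefore received plasmid DNA and the transfection reagent INTERFERin, and both were collected 48 hours later. The comparison asks how these transcripts differ in abundance when lncPSCA is overexpressed by transient transfection. With 1 library per group the groups could not be tested against each other, and every interval given is an exact 95% counting interval that holds no spread between cultures.

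PARP enzymes use NAD+ to attach ADP-ribose to proteins and nucleic acids. PARP1 and PARP2 build poly(ADP-ribose) chains at broken DNA and so recruit repair factors, while most of the other family members attach mono-ADP-ribose or have little catalytic activity. A subset of these other members, including PARP9, PARP10, PARP12 and PARP14, is known as interferon-stimulated and takes part in antiviral defence. PARP9 binds DTX3L in a complex that takes part in interferon responses.

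Sequencing depth was similar: the lncPSCA library totalled 23016646 counts and the control library 21552098, and reads fell on 25900 and 24792 genes in these libraries. PSCA is the protein-coding gene of the locus after which the transfected RNA is named. It was assigned 28699 reads in the lncPSCA library against 22 in the control library. The table has no row for lncPSCA itself. Whether the reads assigned to PSCA came from the transfected RNA or from the PSCA gene was not tested. Epithelial markers were scarce in both libraries: EPCAM, CDH1, KRT8, KRT18 and KRT19 summed to 3.62 CPM (read counts scaled to library size) in lncPSCA and 4.93 CPM in control. All 4 fibroblast markers looked at (COL1A1, COL1A2, DCN and LUM) were measured, with a sum of 1321 CPM in lncPSCA and 1398 CPM in control. Of the gastric markers, TFF1, GKN1, GKN2 and CLDN18 had no reads in either library and MUC5AC had 3 in lncPSCA and 4 in control. Leukocyte markers were as scarce, with CD3E at 0 in both libraries and PTPRC at 4 reads in lncPSCA and 9 in control, and endothelial markers summed to 0.553 CPM in lncPSCA and 0.237 CPM in control, with PECAM1 and CDH5 at 0 in both. The markers looked at therefore showed little of an epithelial or gastric profile, in both libraries alike. They were not compared with a reference profile of HGC-27 and do not settle the identity of the cells. The cells are called HGC-27 here only as the labels name them. In bulk RNA, more cells with a transcript and more of it per cell cannot be told apart.

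The promoters of the interferon-linked genes are shown because several of them carry the same short element close to the start of transcription. The sequences are RefSeq promoter sequences of build GRCh38.p14, printed 5′ to 3′ on the strand of the named gene, and capitals mark matches to GAAA, any 2 bases and GAAA, the core of the interferon-stimulated response element known from promoters of interferon-stimulated genes, or to TTCNNNGAA, the gamma-activated site. Both strands were searched. Each sequence is 30 bases long. The first lies across the RefSeq start of DTX3L, close to a start of PARP9 (chr3:122564321-122564350, plus strand). The PARP14 sequence (chr3:122680795-122680824, plus strand), the PARP12 sequence (chr7:140062952-140062981, minus strand) and, as a gene whose transcript was not higher, the PARP1 sequence (chr1:226408094-226408123, minus strand) lie before the RefSeq start of the gene. In GENCODE release 29, all 30 bases of the DTX3L, PARP14 and PARP12 sequences lie in annotated exons, counted over any gene on either strand. Of the PARP1 sequence, 0 of the 30 bases do. Which transcripts these exons belong to was not looked at.
DTX3L: tccagggaagcGAAACTGAAActttgcgcc
PARP14: agttTTCCAGGAAacGAAAGCGAAAgagtc
PARP12: tttcgccggcccggggccgcTTTCGGTTTC
PARP1: gttccgtgggcgttcccgcggccaggcatc

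The lncPSCA library held many more reads of PARP9, PARP10, PARP12, PARP14 and DTX3L. In contrast, PARP1 and PARP2, which act at DNA breaks, met the size rule used here in neither direction. A gene was called higher or lower when its mean over both libraries reached 1 CPM, its ratio was at least 2-fold with a pseudocount of 1 count, and its counting interval lay wholly beyond 1.5-fold. All 10 genes reached the CPM minimum. Of these, 5 were higher (PARP14, PARP9, DTX3L, PARP10 and PARP12), none was lower and the other 5 met neither side of the rule. By the same rule 3.02% of the 15440 measured genes were higher, 0.596% were lower and 3.62% were either. The median log2 ratio (lncPSCA over control) was 1.84 over the 10 genes and -0.02 over all measured genes. The 5 higher genes together took 0.0853% of all counts in the lncPSCA library against 0.00716% in the control library, an 11.4-fold difference in summed CPM over genes picked for being higher. Over all 10 genes the summed CPM was 1363 in lncPSCA and 666 in control, a 2.05-fold difference. The summed CPM of the other 5 genes was 528 in lncPSCA and 593 in control. This sum mostly follows PARP1, which took 72.7% of their reads in lncPSCA and 79.6% in control.

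**Figure D1:**
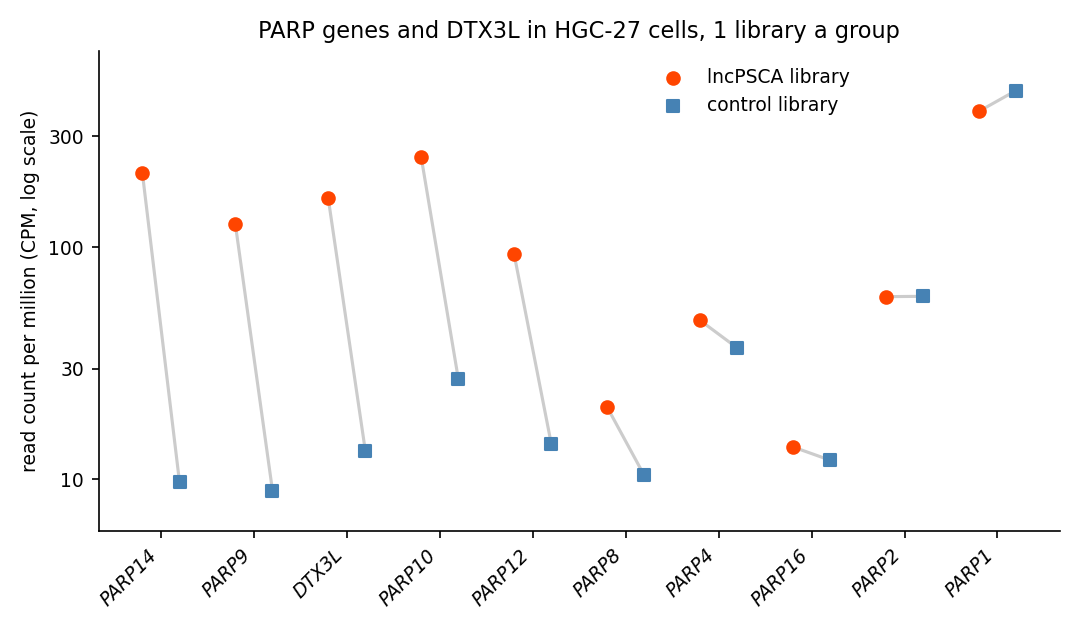
Scaled read counts (CPM, log axis) of the 10 genes in the lncPSCA library (circles, left of each pair) and the control library (squares), 1 library each, ordered by ratio. PARP14, PARP9, DTX3L, PARP10 and PARP12 lay between 93.1 and 244 CPM in lncPSCA and between 8.96 and 27.0 CPM in control. PARP1 stood at 384 CPM in lncPSCA and 472 CPM in control, and PARP2 at 61.2 CPM in lncPSCA and 61.4 CPM in control.

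PARP14, a large mono-ADP-ribosyltransferase with macrodomains that bind ADP-ribose, had the highest ratio of the 10. It had 4924 reads in the lncPSCA library and 205 in the control library, or 209 CPM in lncPSCA and 9.72 CPM in control. The level was 21.6-fold higher (18.7 to 24.9), and its log2 ratio of 4.42 ranked 35 among the 15440 measured genes. The 5 measured genes outside the family whose log2 ratio lay nearest to that of PARP14, among named genes averaging 5 CPM or more, were IFI6 (4.43), TRANK1 (4.41), SAMD9L (4.45), IFIT1 (4.31) and DDX60L (4.55). IFI6, IFIT1 and SAMD9L are known interferon-stimulated genes. Likeness over 2 libraries is 1 number per gene and says nothing more than that these ratios were close.

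PARP9, a macrodomain protein with little or no transferase activity of its own, had 2952 reads in lncPSCA and 189 in control, or 126 CPM in lncPSCA and 8.96 CPM in control. The fold was 14.0 (12.1 to 16.3), at rank 51 of all measured genes. DTX3L, its partner and a ubiquitin ligase of the Deltex family, had 3813 reads in lncPSCA and 279 in control, or 162 CPM in lncPSCA and 13.2 CPM in control. Its fold was 12.3 (10.9 to 13.9), at rank 52. The partners thus kept nearly the same proportion to each other: there were 0.774 PARP9 reads per DTX3L read in the lncPSCA library and 0.677 in the control library. The fold of PARP9 over that of DTX3L was 1.14 (0.941 to 1.39), an interval that includes equal folds. Both intervals lay at 10.9-fold or above.

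PARP10, a mono-ADP-ribosyltransferase first described as a MYC-binding protein, had the largest difference in CPM, a scale that is not adjusted for gene length. It had 5748 reads in lncPSCA and 570 in control, or 244 CPM in lncPSCA and 27.0 CPM in control, a difference of 217 CPM and a fold of 9.05 (8.30 to 9.88). Its rank was 61. In GENCODE release 29, PARP10 shares 521 exon bases with genes on the opposite strand, GRINA and SPATC1, and how the counting treated strand is unknown. GRINA, which had 5198 reads in lncPSCA and 2794 in control, differed 1.67-fold (1.59 to 1.75) and met the rule in neither direction. What the overlap contributes to either count was not tested.

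PARP12, a zinc-finger mono-ADP-ribosyltransferase associated with the Golgi apparatus, had 2189 reads in lncPSCA and 300 in control, or 93.1 CPM in lncPSCA and 14.2 CPM in control. The fold of 6.55 (5.80 to 7.41) was the smallest of the 5 higher genes, and still ranked 81 among all measured genes. Among the higher genes the order of the folds was PARP14, PARP9, DTX3L, PARP10 and PARP12. Apart from PARP9 and DTX3L, adjacent genes in that order differed in fold beyond counting error. The fold of PARP14 exceeded that of PARP9 by a factor of 1.54 (1.25 to 1.89), that of DTX3L exceeded that of PARP10 by 1.36 (1.17 to 1.58), and that of PARP10 exceeded that of PARP12 by 1.38 (1.19 to 1.61).

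**Figure D2:**
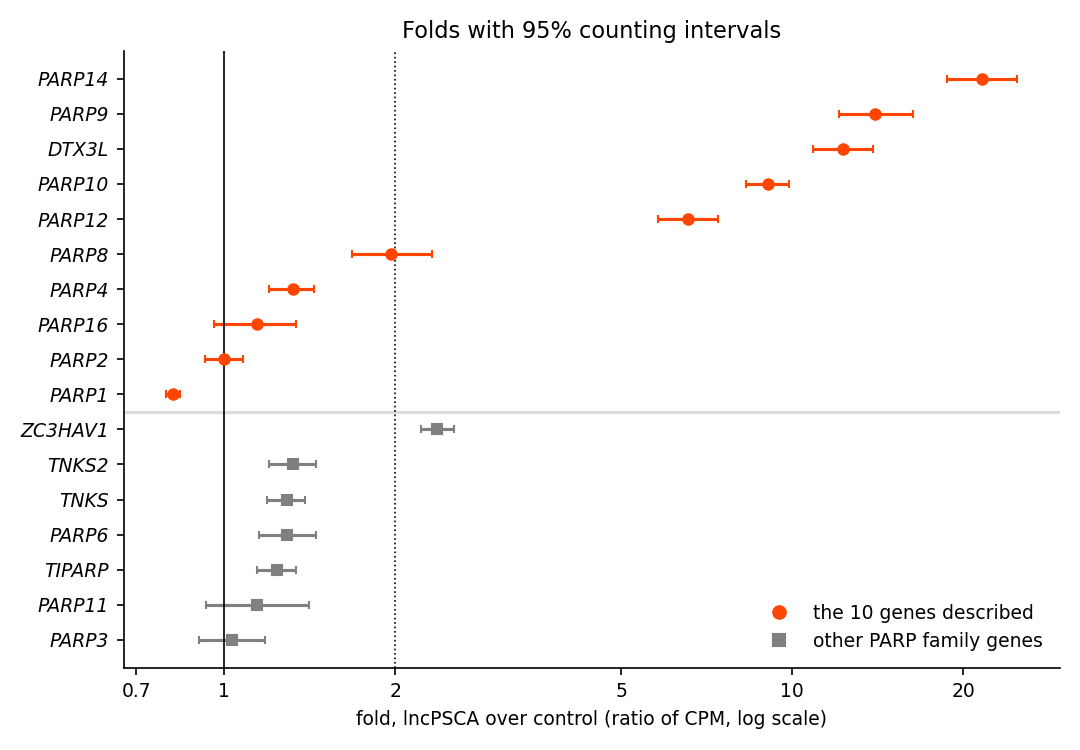
Fold of lncPSCA over control (ratio of CPM, log axis) for the 10 genes (circles) and the 7 other measured PARP family genes (squares), with bars for exact 95% counting intervals, a solid line at equal levels and a dotted line at 2-fold. The intervals of PARP14, PARP9, DTX3L, PARP10 and PARP12 lay at 5.80-fold or above, and ZC3HAV1 was the only other gene with its interval beyond 2-fold.

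The founding member of the family did not share this pattern. PARP1, which binds broken DNA and produces most of the poly(ADP-ribose) in the cell, had 9025 reads in lncPSCA and 9959 in control, or 384 CPM in lncPSCA and 472 CPM in control. The fold was 0.813 (0.790 to 0.837), a log2 ratio of -0.30, and the gene met the rule in neither direction. PARP2, its closest relative, had 1440 reads in lncPSCA and 1295 in control, or 61.2 CPM in lncPSCA and 61.4 CPM in control. Its fold was 0.998 (0.925 to 1.08), and the sign of its log2 ratio differed between the scalings and centrings tried (log2 ratios from -0.03 to 0.09). Of all reads of the 10 genes, not adjusted for length, PARP1 took 28.2% in the lncPSCA library and 70.9% in the control library.

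The other 3 genes lay between these groups. PARP8, a less studied mono-ADP-ribosyltransferase, had 481 reads in lncPSCA and 219 in control, or 20.5 CPM in lncPSCA and 10.4 CPM in control. Its fold of 1.97 (1.68 to 2.32) fell just short of the rule, and it met the rule when libraries were scaled by total counts (log2 ratio 1.04). PARP4, the PARP of the vault ribonucleoprotein particle, had 1138 reads in lncPSCA and 776 in control, a fold of 1.32 (1.20 to 1.44). PARP16, a tail-anchored enzyme of the endoplasmic reticulum that is linked to the stress sensors PERK and IRE1, had 324 reads in lncPSCA and 256 in control, a fold of 1.14 (0.961 to 1.34) whose interval includes equal levels.

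**Figure D3:**
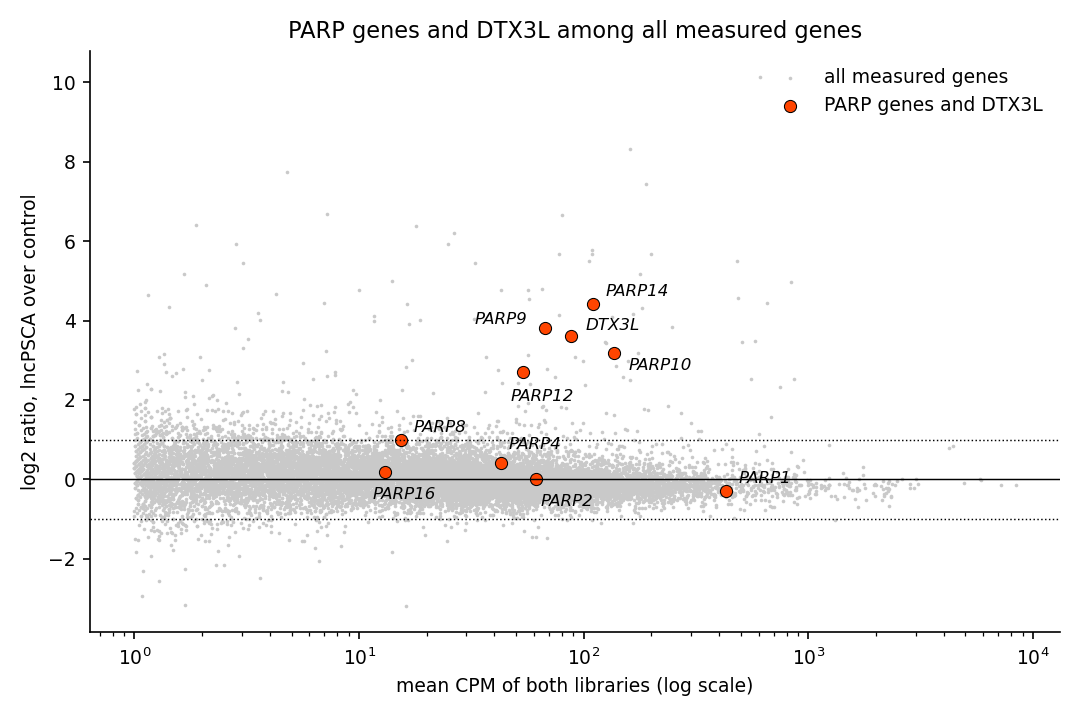
Log2 ratio of lncPSCA over control against the mean CPM of both libraries (log axis) for all 15440 measured genes (grey points) and the 10 genes (outlined circles), with dotted lines at 2-fold in each direction. PARP14, PARP9, DTX3L, PARP10 and PARP12 lay at log2 ratios of 2.71 to 4.42, above the bulk of genes of like abundance, and PARP1, PARP2, PARP4 and PARP16 lay within it.

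The ratios were set beside the trends of the libraries, since longer transcripts and less abundant genes had somewhat higher ratios as a whole. Genes were split by merged exon length into 10 groups of about equal size. In the group with the longest exons, which holds PARP14 (10495 bases), the median log2 ratio was 0.22 and 6.33% of genes were higher. In the group below it, which holds PARP9 and PARP8, the median was 0.10 and 3.07% were higher. By mean CPM, the group of most abundant genes, which holds PARP1 and PARP10, had a median of -0.15, against 0.10 in the less abundant group that holds PARP16. After centring along transcript length the log2 ratio of PARP8 was 0.83, against 0.98 without centring. Over the 13 alternative settings the log2 ratio of PARP14 ran from 4.26 to 4.55, that of PARP9 from 3.69 to 3.90, that of DTX3L from 3.59 to 3.73, that of PARP10 from 3.15 to 3.31 and that of PARP12 from 2.68 to 2.79, and these 5 genes stayed higher under each of the 13.

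Levels of different genes were compared per kilobase of merged exons (GENCODE release 29). In the lncPSCA library PARP1 stood highest at 53.5 CPM per kilobase (52.4 to 54.7), and PARP10 followed at 40.5 (39.5 to 41.6). DTX3L (26.8 to 28.5) and PARP14 (19.4 to 20.5) came next, ahead of PARP2 at 15.0. PARP12 (14.8) and PARP9 (14.0) lay beside PARP2, and neighbours in this order overlapped. PARP4 at 7.96, PARP16 at 3.71 and PARP8 at 2.03 were the lowest.

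The order was different in the control library. PARP1 was again highest at 65.8 CPM per kilobase (64.6 to 67.1), but PARP2 followed at 15.0, then PARP4 at 6.05, PARP10 at 4.48 and PARP16 at 3.27. PARP12 (2.26) and DTX3L (2.25) came next and could not be told apart within counting error. PARP8 (0.900 to 1.18), PARP9 (0.864 to 1.16) and PARP14 (0.803 to 1.06) formed the lowest group, in which neighbours overlapped. By level per kilobase PARP14 was thus the fourth of the 10 in the lncPSCA library and the last in the control library.

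PARP9, DTX3L and PARP14 lie in 1 block on chromosome 3, with PARP15, a further macrodomain PARP, between DTX3L and PARP14. PARP15 had 1 read in the lncPSCA library and 0 in the control library, under the limit of 3 counts that a count of 0 allows (0.142 CPM in control). None of the 4 measured genes on either side of the block met the rule, which 3.62% of all measured genes met in either direction. KPNA1, a nuclear import receptor and the measured gene next to PARP9, had 1259 reads in lncPSCA and 1177 in control, a fold of 0.960 (0.886 to 1.04). HSPBAP1, next to PARP14, had 163 reads in lncPSCA and 132 in control, a fold of 1.11 (0.876 to 1.40). Beyond them WDR5B-DT stood at 0.941-fold (0.830 to 1.07) and SLC49A4 at 0.915-fold (0.691 to 1.21). The gene farthest out on the PARP14 side, SEC22A, named after its value was seen, had 59 reads in lncPSCA and 84 in control, a fold of 0.630 (0.444 to 0.890) whose interval excludes equal levels.

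**Figure D4:**
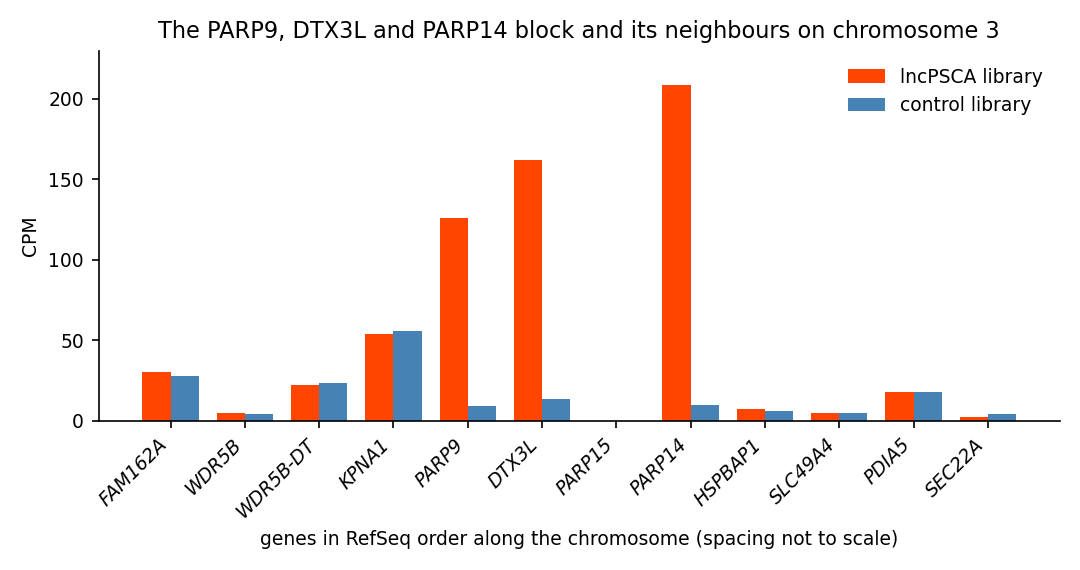
CPM in the lncPSCA library (left bar) and the control library (right bar), 1 library each, for PARP9, DTX3L, PARP15, PARP14 and the 4 measured genes on each side in RefSeq order, with distances not to scale. PARP9, DTX3L and PARP14 stood at 126, 162 and 209 CPM in lncPSCA against 8.96, 13.2 and 9.72 CPM in control, with PARP15 near 0 and each of the 8 flanking genes short of the rule in both directions.

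The same held around the other genes. For each of the 10, the measured genes nearest on either side (up to 2 a side, 32 genes in all) had a median log2 ratio of 0.02. None was higher or lower by the rule. Of all measured genes 3.62% were called in either direction, and 0 of 32 is near that share. Their log2 ratios ran from -0.68 (KDM7A-DT, beside PARP12) to 0.74 (GRINA, beside PARP10). Next to PARP10 the others were NRBP2 at 1.52-fold, PLEC at 0.906-fold and EXOSC4 at 0.813-fold. Next to PARP12, HIPK2 was at 1.04-fold, TBXAS1 at 1.17-fold and KDM7A at 1.45-fold. Beside PARP1, LIN9 was at 0.791-fold, ITPKB at 0.899-fold, PSEN2 at 1.06-fold and ACBD3-AS1 at 1.36-fold. Beside PARP2 (TTC5, CCNB1IP1, TEP1, OSGEP), PARP4 (C1QTNF9B, SPATA13, MTMR6, NUP58), PARP8 (MRPS30, EMB, ISL1-DT, ISL1) and PARP16 (PDCD7, CLPX, IGDCC3, IGDCC4), the log2 ratios ran from -0.40 for C1QTNF9B to 0.52 for EMB.

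PARP9 and DTX3L are transcribed away from each other, and one of the RefSeq starts of PARP9 lies 37 bases from that of DTX3L. The response element printed above for DTX3L is 1 site that both promoter windows hold: its letters run from base -6 to base 4 of DTX3L, counted from the start as base 1, and from base -41 to base -32 of PARP9 on the opposite strand. In GENCODE release 29 the exons of PARP9 and DTX3L share 217 bases on opposite strands, and how reads there were assigned is unknown. The element of PARP14 ran from base -29 to base -20, and a gamma-activated site lay next to it from base -40 to base -32. In PARP12 the element lay on the opposite strand, from base -10 to base -1.

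RefSeq promoter windows, which reach from 250 bases before the start to 50 after it, were matched for 8 of the 10 genes. PARP4 and PARP10 had no entry. The response element core was found for PARP9, DTX3L, PARP14 and PARP12, which were all 4 of the higher genes with an entry. In PARP9 it lay in 1 of 2 windows, and this match and that of DTX3L are 1 site. None of the windows of PARP1, PARP2, PARP8 and PARP16 held the core. Of all 35116 windows, 3.57% held it, and 4.38% of genes had it in at least 1 window. Among the measured genes with a window, 58 of 414 with the core were higher in the lncPSCA library (14.0%), against 254 of 10255 without it (2.48%). The gamma-activated site was found in 7.66% of all windows and for 9.38% of genes. It was present in PARP14 and, from base -154 to base -146, in PARP2, a gene that did not meet the rule. Of the measured genes with this site, 39 of 889 were higher (4.39%), against 273 of 9780 without it (2.79%). These matches describe letters in a window and were not tested as binding sites.

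**Figure D5:**
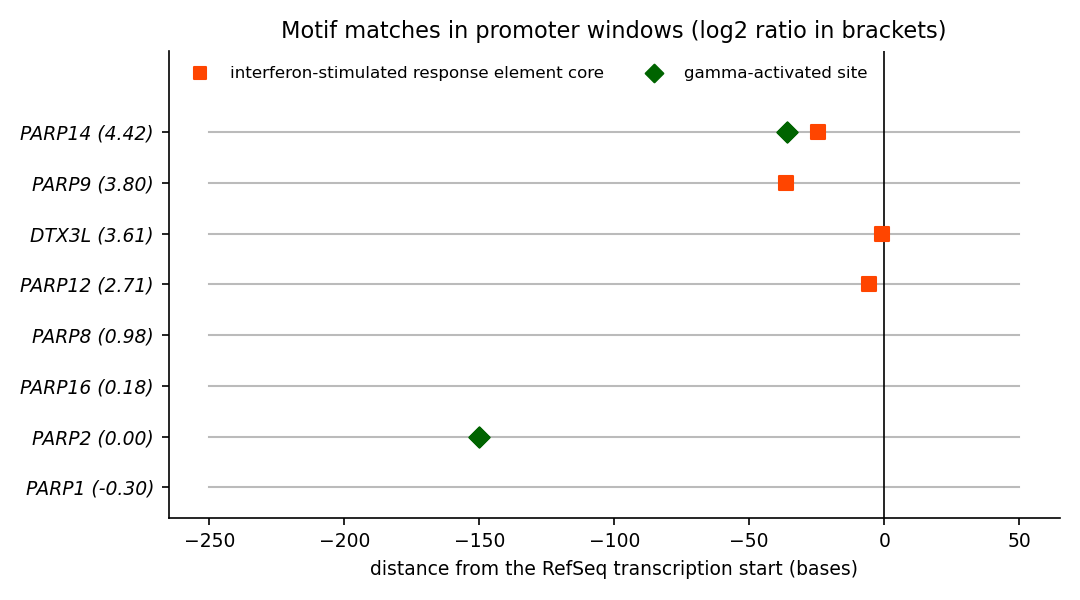
Positions of matches to the interferon-stimulated response element core (squares) and the gamma-activated site (diamonds) in RefSeq promoter windows, as distance in bases from the start of transcription, for the 8 genes with an entry, ordered by log2 ratio (in brackets). Windows of a gene with several starts are drawn on 1 line, and all 4 genes with a log2 ratio of 2.71 or more carry the core within about 41 bases of a start.

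The remaining PARP family genes differed less. PARP15 fell below the CPM minimum, and of the other 7, 1 was higher, none was lower, and the median log2 ratio was 0.36. ZC3HAV1, a catalytically inactive PARP known as the zinc-finger antiviral protein, had 3180 reads in lncPSCA and 1203 in control, or 135 CPM in lncPSCA and 57.0 CPM in control, a fold of 2.37 (2.22 to 2.54). It fell short of the rule at a limit of 3-fold and when a coefficient of variation between cultures of 0.2 was assumed. Its promoter window held a gamma-activated site and no response element core.

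The tankyrases TNKS2 and TNKS, which make poly(ADP-ribose) on partners such as axin, stood at 1.32-fold (1.20 to 1.45) and 1.29-fold (1.19 to 1.39). PARP6 stood at 1.29-fold (1.15 to 1.45) and TIPARP, a target gene of the aryl hydrocarbon receptor, at 1.24-fold (1.14 to 1.34). PARP11 was at 1.14-fold (0.930 to 1.41) and PARP3, which acts at DNA strand breaks, at 1.03-fold (0.904 to 1.18). Apart from ZC3HAV1 at 1.25, the log2 ratios of these genes ran from 0.05 (PARP3) to 0.40 (TNKS2). Among the other Deltex ligases, DTX2 was at 1.11-fold (0.955 to 1.30) and DTX4 at 0.922-fold (0.762 to 1.12), while DTX1 had no reads and DTX3 had 1 in each library.

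Genes of interferon and cytokine signalling were partly higher. Of 9 measured, 3 were higher and none was lower: STAT2 and IRF9, transcription factors of the interferon response, and IRF1, an interferon-induced transcription factor. The median log2 ratio over the 9 was 0.17. STAT2 was 7.93-fold higher (7.35 to 8.56), IRF9, with 98 reads in lncPSCA and 27 in control, 3.26-fold (2.11 to 5.19), and IRF1 2.79-fold (2.51 to 3.11). When the coefficient of variation between cultures was taken as 0.4, 1 of the 3 (STAT2) still met the rule. IRF9 was not measured at a minimum of 5 CPM, and IRF1 fell short at a limit of 3-fold. Of the 6 that did not meet the rule, the kinases JAK1 and TYK2 stood at 1.12-fold and 1.10-fold, the receptor chains IFNAR1 and IFNAR2 at 1.01-fold and 0.738-fold, and STAT3 and STAT6 at 1.31-fold and 1.07-fold.

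Genes that remove ADP-ribose or supply its precursor did not meet the rule in either direction. None of the 9 measured removal genes did (median log2 ratio 0.06), where 3.62% of all measured genes met it in either direction. For lists this short, counts of 0 here and below are near that share. The highest by mean CPM, a scale that is not adjusted for gene length, were NUDT5, an ADP-ribose pyrophosphatase, with 121 CPM in lncPSCA and 148 CPM in control, and ADPRS, which removes ADP-ribose from serine, with 63.4 CPM in lncPSCA and 57.8 CPM in control. PARG, which degrades poly(ADP-ribose), was at 1.04-fold (0.899 to 1.21) and was named after its value was seen. None of the 10 measured cofactors, readers and repair partners of PARP1 and PARP2 met the rule, with a median of -0.23. MACROH2A1, a histone variant whose macrodomain can bind ADP-ribose, was at 165 CPM in lncPSCA and 201 CPM in control, and FEN1, the flap endonuclease, at 158 CPM in lncPSCA and 211 CPM in control.

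None of the 7 measured NAD supply genes met the rule, with a median of 0.01, again near the share of 3.62% over all measured genes. QPRT, an enzyme of NAD synthesis from tryptophan, was at 336 CPM in lncPSCA and 315 CPM in control, and NADK, which phosphorylates NAD, at 181 CPM in lncPSCA and 150 CPM in control. Likewise none of the 7 measured NAD consumers outside the PARP family did (median -0.04). SARM1, an NAD-cleaving enzyme, was at 57.9 CPM in lncPSCA and 59.5 CPM in control, and the deacylase SIRT6 at 45.6 CPM in lncPSCA and 45.1 CPM in control. The measured genes of these 4 lists lay within log2 ratios of -0.41 (FEN1) and 0.33 (MACROD1, a mono-ADP-ribose hydrolase). The log2 ratios of PARP9, PARP10, PARP12, PARP14 and DTX3L ran from 2.71 to 4.42. These genes were grouped with their values known, so the distance between the ranges is no test. ZC3HAV1, an antiviral PARP outside that group, was at 1.25.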

How the data were processed

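Per the labels' protocols, total RNA was extracted with Trizol. The authors deposited 1 table of raw read counts per Ensembl gene. The submitters' processing notes list TopHat2, HTSeq and hg19; the versions, the annotation release and the strand setting were not given in the sources used here. Gene symbols were matched for 52181 of 63677 identifiers (81.9%). Library sizes were multiplied by TMM factors from edgeR 4.0.16 (1.02 in lncPSCA, 0.979 in control) to give CPM. Folds are ratios of CPM with exact Clopper-Pearson 95% intervals, levels carry exact Poisson intervals, and ratios of folds conditional exact intervals (SciPy 1.17.1). Reads are not independent molecules, so all intervals cover counting error only. Log2 ratios use a pseudocount of 1, which understates ratios of genes with few reads. The script was tested on simulated data. Merged exon lengths and overlaps come from GENCODE release 29 (GRCh38), matched by identifier. Members, lists and the size rule were chosen with earlier results of these data known. Named genes were all members and PARP family genes, the neighbours, and in each list the genes that met the rule or the 2 with the highest mean CPM; PARG, MACROD1, DTX1, DTX3, SEC22A and the signalling genes short of the rule were named in addition, after their values were seen. Planned protein features were not used here, and 1 gene of the signalling list is not reported here. Alternatives were other scalings (DESeq2 1.42.0 size factors, total counts, upper quartile), centrings along expression and length, CPM minimums, pseudocounts, fold limits and assumed spreads between cultures.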

Additional observations from a re-analysis of the deposited data

How the results depend on the processing

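Of the 10 genes, 0 were lower under all 13 alternatives and 5 were higher under 11 of them, while PARP8 made it 6 higher under total-count scaling and at a limit of 1.5-fold. The median log2 ratio of the 10 genes ran from 1.76 to 1.90. Of 377 recomputed values 358 stayed within their counting interval (for counts within 1.5 times, for the median within 0.1), 19 did not, and 0 changed sign with the call. The CPM minimums, fold limits and assumed spreads could not change the log2 ratios of the 10 genes or their median. Those values were the same by construction, so the total overstates the agreement. The counts over all measured genes (467 higher, 92 lower) depended on the rule: they were 1624 and 835 at 1.5-fold, 197 and 20 at 3-fold, 284 and 46 with a minimum of 5 CPM, 215 and 27 when a coefficient of variation between cultures of 0.2 was assumed, and 105 and 5 for 0.4. Without a CPM minimum, 150 were lower. Fewer genes pass stricter limits by construction. ZC3HAV1 left 0 of the other PARP family genes higher at 3-fold and with 0.2 or 0.4 assumed, and of the 3 higher signalling genes STAT2 alone stayed higher with 0.4 (1), IRF9 dropped out at a minimum of 5 CPM (2 higher) and IRF1 at 3-fold (2 higher). PARP1 was at -0.15 when centred along mean expression and -0.35 along length; the cause was not tested. No paired analysis was possible because each group has 1 library, and leaving out a library was not possible for the same reason. Depth limits PARP15, DTX1, DTX3 and the markers at or near 0, and the spread between cultures was not measured.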
